A study of Mus musculus with 15 samples.

Results

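The comparison set mouse bone marrow-derived macrophages (BMDMs) that had received IL-4 and IL-6 together for 24 h against BMDMs that had received neither cytokine over the same time. Its members were chosen by their labels, as the 3 libraries of the combined treatment (IL-4/IL-6) and the 3 untreated libraries (control), which made up 6 of the 15 RNA-seq libraries of the series. All groups shared a culture of bone marrow for 7 days in medium with 10% serum and 20 ng/ml of M-CSF, the growth factor that turns marrow precursors into macrophages. The study's methods describe bone marrow of mice 8 to 12 weeks old that carry a fluorescent reporter allele, whereas the labels give no strain, genotype, age or sex. The IL-4/IL-6 group received 10 ng/ml of IL-4 and 40 ng/ml of IL-6. A further 3 libraries with 10 ng/ml of IL-4 alone and 3 with 40 ng/ml of IL-13 and 40 ng/ml of IL-6 (IL-13/IL-6) served as points of reference, all at 24 h. No library came from cells given IL-6 alone, so the effect of IL-6 by itself cannot be told apart from that of IL-6 given with IL-4. The study calls the replicates biological and its experiments independent. The labels number them but do not say whether they were separate cultures or animals, so the p-values measure the spread between these samples, which may be technical.

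IL-4 acts on macrophages through the kinase JAK1 and the transcription factor STAT6, and drives the state called alternative or M2 activation, marked by genes such as *Mrc1* and *Retnla*. IL-6 binds its receptor together with gp130, encoded by *Il6st*, and activates STAT3, which in turn induces feedback inhibitors such as *Socs3*. Resting BMDMs in M-CSF still divide, and they carry receptors for microbes, dead cells and chemokines that change as the cells are polarised. The data below describe what the RNA of co-treated BMDMs contained less of and more of than that of untreated cells.

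The 6 libraries held 17001352 to 18918686 counts, and 13685 genes had enough counts to be tested in the fit of 9 libraries, those of IL-4 alone included. The 3 IL-4/IL-6 libraries differed more among themselves than the others did, with a biological coefficient of variation (the replicate spread left after counting error) of 14.8% against 4.48% in control and 4.54% in IL-4. Their differences ran with gene length. Over 10564 genes, IL-4/IL-6 replicate 2 stood 0.32 log2 units above its fellow replicates at the median of the quartile of shortest genes (up to 2649 bases) and -0.22 at that of the quartile of longest genes (from 6660 bases), and replicate 3 showed the opposite, with -0.25 and 0.18. In the control and IL-4 libraries these medians lay within 0.05 of 0. What set these libraries apart was not tested, and the largest change in a list's counts without replicate 2 is given below. As a check on the label of the cells, all 12 tested markers of macrophages were present in both groups, and *Csf1r*, the receptor for M-CSF, had 2091, 2203 and 2284 CPM (counts scaled to a common library total by TMM factors) in the control libraries and 1665, 1420 and 1657 after co-treatment.

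Co-treatment changed most of the measured genes. Unless another method is named, every adjusted p below comes from the quasi-likelihood test of edgeR, adjusted by Benjamini and Hochberg's method, with calls made under 0.05. That test fitted a single spread per gene over all libraries of a fit. Its SEs and p-values may therefore understate the wider spread among the IL-4/IL-6 libraries. By that test co-treatment raised 4934 genes (36.1%) over control and lowered 5025 (36.7%). Large falls outnumbered large rises. A total of 1314 genes (9.60%) passed a log2 fold change of -2 on the lower side and 501 (3.66%) passed 2 on the higher side, while the median over all tested genes was -0.03. Without IL-4/IL-6 replicate 2 these counts were 1416 and 503, and without replicate 3 they were 1526 and 539. In bulk RNA, fewer cells of one type and less of an RNA per cell cannot be told apart, which applies to each fall described here.

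**Figure D1:**
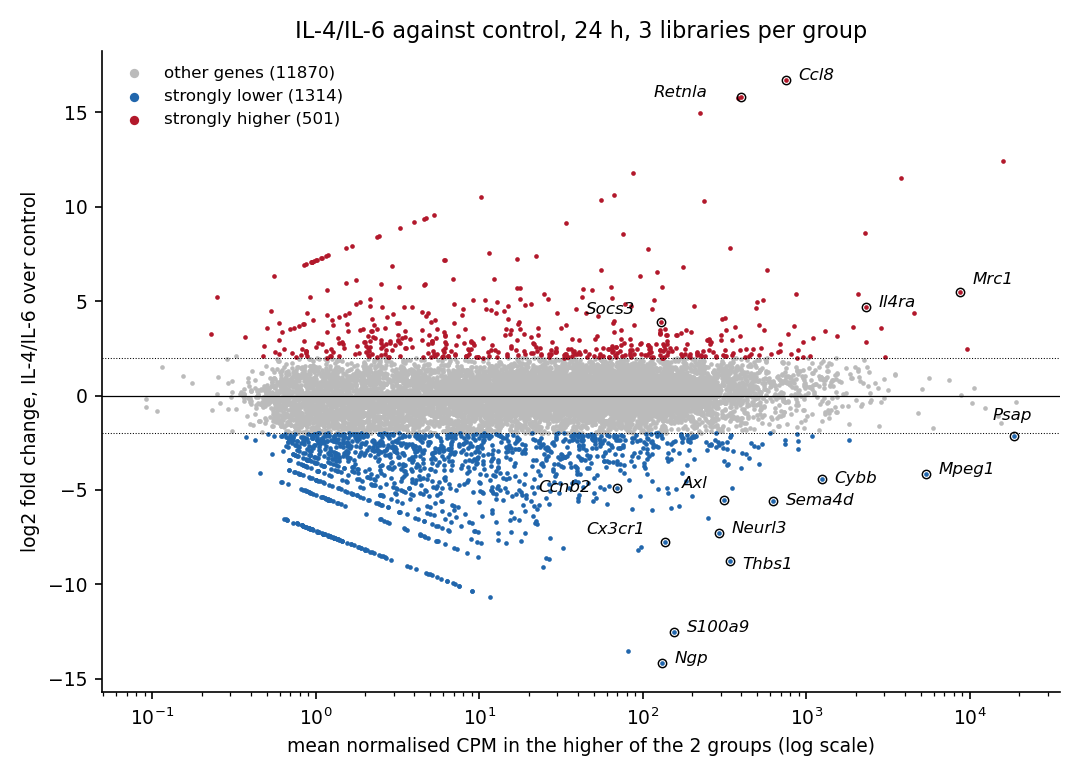
Log2 fold change of IL-4/IL-6 over control (vertical axis) against mean normalised CPM in the higher of the 2 groups (horizontal axis, log scale) for the 13685 tested genes, 1 point per gene. The 1314 strongly lower genes are blue and the 501 strongly higher genes are red, with named genes marked. The largest fitted values belong to genes at or near 0 counts in one group and give no bound on the fold.

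The 1314 strongly lower genes were mostly protein-coding (1108 genes, 84.3%), and their level in control ranged widely. Of these genes, 467 (35.5%) had 10 or more CPM in control and 116 had 100 or more, whereas 153 had less than 1. Together they held 7.33% of the summed CPM of the tested genes in control and 1.01% in IL-4/IL-6. The 501 strongly higher genes made the opposite move, from 1.13% to 10.1%, and 137 of them stood at 100 or more CPM in IL-4/IL-6. Co-treatment took 559 of the 1314 (42.5%) below their level in IL-4, where 20.3% of all tested genes were called lower, and left 24 above it, where 17.7% of all genes were called higher. The IL-4/IL-6 libraries enter both contrasts, so these counts describe the same libraries from 2 sides.

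Of the falls to the limit of detection, the steepest belonged to genes of other marrow cells. Among genes with at least 10 CPM in control, 16 had at most 3 counts in every IL-4/IL-6 library, and the 5 with the highest control level were *S100a9*, *Ngp*, *Ltf*, *Ly6c2* and *Mpo*. *S100a9*, a calcium-binding protein abundant in neutrophils, had 143, 173 and 153 CPM in the control libraries and at most 1 count in an IL-4/IL-6 library, at least 902-fold lower when 3 counts are taken as the limit. *Ngp*, a neutrophil granule protein, had 124, 144 and 122 CPM in control and 0 in each IL-4/IL-6 library, at least 752-fold lower. *Mpo*, the myeloperoxidase of neutrophil granules and their precursors, had 22.4, 30.5 and 24.1 CPM in control and was at least 148-fold lower. *Ly6c2*, a surface marker of inflammatory monocytes that shares reads with its close copy *Ly6c1*, was at least 155-fold lower. IL-4 alone had already removed these transcripts, with means of 0.0369, 0.0366, 0.216 and 0.0548 CPM for the 4 genes in the order given.

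The whole marker lists showed the same. All 13 tested markers of granulocytes and their precursors were lower in IL-4/IL-6, where 36.7% of all genes were, and the summed level of all 14 on the list ranged from 529 to 621 CPM in the control libraries, 25.5 to 27.1 with IL-4 and 11.9 to 13.1 with IL-4/IL-6, with 9 of the 13 at the limit of detection. Of the last sum, *Mmp8* alone gave 10.3 CPM. The 9 tested megakaryocyte and platelet markers were also all lower, with *Ppbp*, a platelet chemokine, at 172, 170.4 and 154 CPM in control and 2.04, 3.48 and 2.88 in IL-4/IL-6, and *Itga2b*, the platelet integrin, at 122, 109.8 and 109.8 and 1.59, 1.41 and 2.02. Their sum was 539 to 561 CPM in control and 67.1 to 109 in IL-4/IL-6, most of it *Vwf*. All 8 tested markers of mast cells, basophils and eosinophils were lower, and the 11 on the list summed to 42.5 to 48.7 CPM in control and 0.921 to 1.36 in IL-4/IL-6. Of the 8, 6 were at the limit of detection in IL-4/IL-6 and 0 in control. Of the 6 B cell markers, *Cd79a*, *Cd79b*, *Ms4a1* and *Pax5* together held little RNA and all were lower, while *Blnk*, which macrophages also express, had 168 ± 6.07 CPM in control and 74.8 ± 6.55 in IL-4/IL-6 (SD, n = 3). Of the few tested markers of T and NK cells, erythroid cells, and stromal and endothelial cells, 1 of 2, 1 of 1 and 3 of 5 were lower. Of the 12 macrophage markers, 5 were higher, 4 lower and 3 not called, where 36.1% and 36.7% of all genes were higher and lower. Their sum was 20966 to 23405 CPM in control and 14029 to 16605 in IL-4/IL-6. In all, 45 of the 1314 strongly lower genes (3.42%) were in a marker list of another cell type, and none of the 501 strongly higher genes was, where 0.387% of all tested genes (53) were. Markers at the limit of detection in IL-4/IL-6 passed the count filter only through their level in other groups. Such markers could be called lower but not higher, so these shares and the counts of lower markers were partly set by the filter.

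IL-4 alone left the sum of the dendritic cell markers near control, as it did that of the B cell markers. Yet with IL-4 alone 4 of the 9 B cell and 5 of the 10 dendritic cell markers had at most 3 counts in every library, against 1 and 0 in control. Of the 9 tested dendritic cell markers, 7 were lower and 1 higher with IL-4/IL-6 than in control (36.7% and 36.1% over all genes), with 5 at the limit of detection. The 10 markers on the list, 9 of them tested, summed to 308 to 346 CPM in control, 331 to 372 with IL-4 and 58.7 to 68.9 with IL-4/IL-6. Most of that was *Itgax*, which encodes the integrin CD11c and is also expressed by BMDMs. *Flt3*, the growth factor receptor that defines dendritic cell precursors, had 7.75, 5.31 and 6.05 CPM in control and 0 in every IL-4 and IL-4/IL-6 library. *Siglech*, a marker of plasmacytoid dendritic cells, had 5.62, 5.31 and 5.49 CPM and was likewise at 0. In contrast, *Batf3*, a transcription factor of one dendritic cell lineage, rose from 3.59 ± 0.00592 to 10.1 ± 1.9 CPM (SD, n = 3; log2 fold change 1.50, SE 0.14, adjusted p = 1.07e-06).

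**Figure D2:**
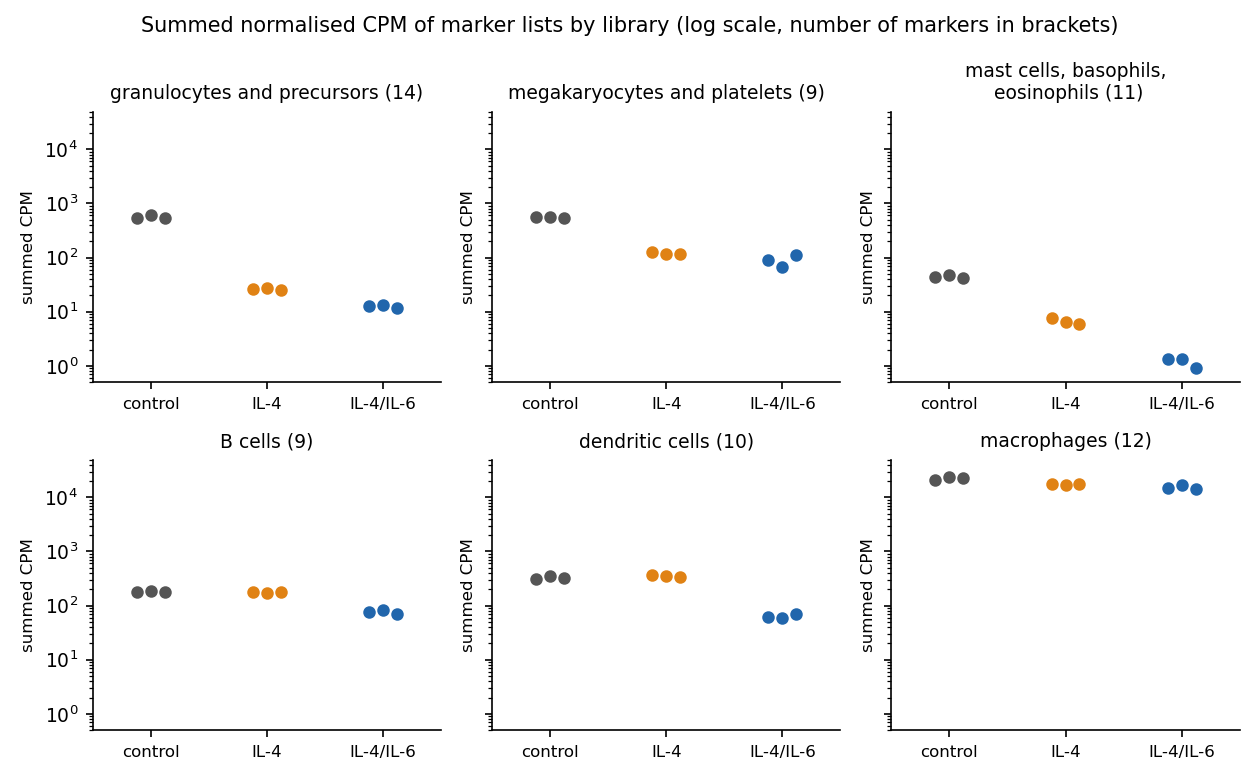
Summed normalised CPM of the marker genes of 6 cell types (panels) in the libraries of 3 groups (control, IL-4 alone, IL-4/IL-6), on a log axis, with 1 point per library. Granulocyte, megakaryocyte and mast cell sums were already low with IL-4 alone, the dendritic cell and B cell sums were lowest in the IL-4/IL-6 libraries and overlapped between the 2 other groups, and the macrophage sum stayed within the same order of magnitude.

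Other strong falls lay outside those lists. By the rule for named genes, the 15 largest falls among genes with 10 or more CPM included *Thbs1*, *Slc40a1* and *Cx3cr1*. *Thbs1* (chr2:118111876-118127133, all gene positions on GRCm38) encodes thrombospondin 1, a secreted matrix protein. It had 351, 322 and 348 CPM in the control libraries and 0.623, 0.883 and 0.806 after co-treatment (log2 fold change -8.76, SE 0.14, adjusted p = 3.03e-13). Most of that fall was seen with IL-4 alone, which left 1.12, 1.49 and 1.96 CPM, and the further fall from IL-4 to IL-4/IL-6 was -1.02 on the log2 scale (adjusted p = 0.00433). *Slc40a1*, which encodes ferroportin, the iron exporter of the cell, went from 91.1, 109.5 and 89.8 CPM to 0.567, 0.412 and 0.115 (log2 fold change -8.01, SE 0.24, adjusted p = 2.19e-11), and it too was near its floor with IL-4 alone at a mean of 0.743 CPM.

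*Cx3cr1* fell further with co-treatment than with IL-4. *Cx3cr1* (chr9:119901616-120069879) is the receptor for fractalkine on monocytes and resident macrophages, and its annotated span overlaps other genes that could share reads where strand was not used. It had 136, 129 and 146 CPM in control, 4.12, 6.08 and 5.89 with IL-4 and 0.907, 0.353 and 0.576 with IL-4/IL-6 (log2 fold change -7.77, SE 0.19, adjusted p = 4.9e-12 against control, and -3.15 against IL-4, adjusted p = 6.34e-07). *Ccr2*, the receptor that brings monocytes into tissue, fell from 81.6, 80.8 and 83.8 CPM to 4.19, 2.53 and 4.26 (log2 fold change -4.46, SE 0.14, adjusted p = 3.42e-11).

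Among genes with at least 100 CPM in control, several outside the rule were picked after their values were seen, because they stood out for level and fold. *Neurl3*, a ubiquitin ligase of the neuralized family, had 289, 298 and 295 CPM in control, 22.9, 22.7 and 24.6 with IL-4 and 1.53, 2.36 and 1.67 with IL-4/IL-6 (log2 fold change -7.29, SE 0.11, adjusted p = 3.03e-13). *Adgre5*, which encodes the adhesion receptor CD97 and whose span overlaps *Ddx39*, had 249.6, 259 and 248 CPM in control, 29.6, 27.1 and 27.4 with IL-4 and 3, 3.48 and 1.96 with IL-4/IL-6 (log2 fold change -6.47, SE 0.13, adjusted p = 1.37e-12). *Sema4d* (chr13:51685529-51793747), a membrane semaphorin, had 616, 635 and 625 CPM in control, 149, 136 and 147 with IL-4 and 11.6, 13.2 and 14.3 with IL-4/IL-6 (log2 fold change -5.57, SE 0.09, adjusted p = 3.03e-13). All 3 genes followed one order, with control libraries at the top, IL-4 libraries about an order of magnitude or less below and IL-4/IL-6 libraries far below both, without overlap. *Cybb*, the catalytic subunit of the phagocyte NADPH oxidase, had 1145, 1288 and 1287 CPM in control, 274, 259 and 246 with IL-4 and 55, 52.1 and 66.7 with IL-4/IL-6 (log2 fold change -4.40, SE 0.11, adjusted p = 4.67e-12, and -2.20 against IL-4, adjusted p = 3.43e-09). *Ptafr*, the receptor for platelet-activating factor, fell from 344, 369 and 346 to 10.6, 10.8 and 13.3 CPM (log2 fold change -4.92, SE 0.11, adjusted p = 2.41e-12), *Slamf7* from a mean of 160.5 ± 5.14 to 5.07 ± 0.465 (SD, n = 3), and *Slc11a1*, a metal transporter of the phagosome, from 398 ± 14.9 to 27.2 ± 3.08.

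**Figure D3:**
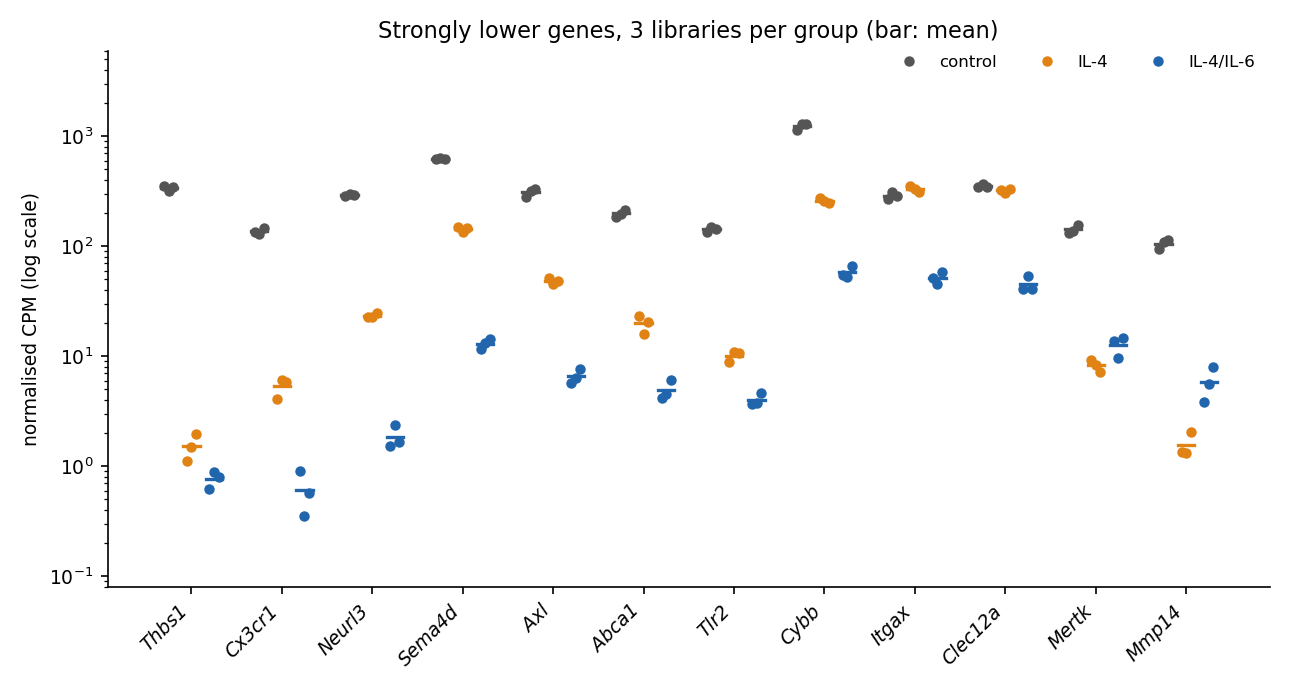
Normalised CPM (log axis) of 12 strongly lower genes in each library of the 3 groups, 1 point per library and a bar at the group mean. In each of the 12 genes the IL-4/IL-6 libraries lie below all control libraries, whereas the IL-4 libraries lie near control for *Itgax* and *Clec12a*, near or below IL-4/IL-6 for *Mertk* and *Mmp14*, and between the 2 groups for most others.

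A small group moved in the opposite direction with IL-4 alone. IL-4 raised 13 of the 1314 genes above the same control libraries while IL-4/IL-6 lowered them, where IL-4 raised 34.7% of all tested genes, and the values of 4 of them, named after their values were seen, are given here. *Itgax* had 272, 310.4 and 285 CPM in control, 353, 334 and 309.9 with IL-4 and 51.4, 45.9 and 58.7 with IL-4/IL-6 (log2 fold change -2.46, SE 0.10, adjusted p = 2.99e-10). *Rgs2*, which limits signalling from G protein-coupled receptors, had 135, 146 and 143 CPM in control, 202, 202 and 212 with IL-4 and 24.8, 30.3 and 19.3 with IL-4/IL-6 (log2 fold change -2.50, SE 0.12, adjusted p = 1.13e-09). *Pdgfb*, a growth factor for mesenchymal cells, had 18.5, 15.4 and 18.8 CPM in control, 38.7, 45.8 and 42.8 with IL-4 and 2.38, 2.3 and 2.71 with IL-4/IL-6 (log2 fold change -2.82, SE 0.14, adjusted p = 1.41e-09). In all of these the IL-4/IL-6 libraries were lowest, and the IL-4 libraries were highest, with an overlap between IL-4 and control for *Itgax* alone. *Ptpn22*, a phosphatase of immune receptor signalling, had 30.2 ± 1.96 CPM in control, 35.9 ± 0.851 with IL-4 and 3.07 ± 0.524 with IL-4/IL-6 (SD, n = 3; log2 fold change -3.58, SE 0.12, adjusted p = 3.37e-10 against IL-4). A related case was *Clec12a*, an inhibitory lectin receptor, which IL-4 alone left near control and which co-treatment lowered, with 349, 369.7 and 344 CPM in control, 328, 307 and 332 with IL-4 and 40.8, 53.3 and 41.1 with IL-4/IL-6 (log2 fold change -2.96, SE 0.10, adjusted p = 3.73e-11). *Myo1f*, a myosin of white blood cells, was not called with IL-4 alone (adjusted p = 0.0799) and went from 1076 ± 8.97 CPM in control to 242 ± 24.8 in IL-4/IL-6.

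The reverse, a strong fall that co-treatment made smaller than IL-4 did, was seen for 24 genes. *Mmp14*, a membrane-bound matrix metalloproteinase, had 95.2, 109 and 113 CPM in control, 1.34, 1.33 and 2.07 with IL-4 and 3.85, 5.59 and 8.06 with IL-4/IL-6 (log2 fold change -4.16, SE 0.19, adjusted p = 7.86e-10 against control, and 1.84 against IL-4, adjusted p = 0.000155). *Mertk*, a receptor for the uptake of dead cells, had 132, 139 and 156 CPM in control, 9.36, 8.3 and 7.14 with IL-4 and 13.9, 9.6 and 14.6 with IL-4/IL-6 (log2 fold change -3.47, SE 0.14, adjusted p = 3.53e-10 against control, and 0.58 against IL-4, adjusted p = 0.0121). The libraries of both treatments lay close together for *Mertk*, far below control. *Cxcr4*, the receptor for CXCL12, had 194 ± 5.45 CPM in control, 24.4 ± 1.62 with IL-4 and 34.6 ± 0.52 with IL-4/IL-6. *Arhgap19*, a regulator of small GTPases named after its values were seen, had 343 ± 9.8, 30.9 ± 0.908 and 73.8 ± 1.35 CPM in the same order. The count of 24 is one that depends on the method, as 56 genes met it with limma voom and sample quality weights.

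Receptors for dead cells, scavenging and antibodies did not move as one. Of 23 tested phagocytic and scavenger receptors, 15 were lower than control, 6 strongly, and 6 were higher (36.7%, 9.60% and 36.1% over all genes), with a median log2 fold change of -0.79. *Axl* (chr7:25757273-25788705), a receptor of the same family as *Mertk*, had 282, 320.4 and 333 CPM in control, 51.1, 45.9 and 48.2 with IL-4 and 5.72, 6.36 and 7.6 with IL-4/IL-6 (log2 fold change -5.55, SE 0.12, adjusted p = 1.62e-12). *Mfge8*, a secreted bridge between dead cells and phagocytes, fell from 876, 948 and 863 to 123, 135 and 121 CPM (log2 fold change -2.81, SE 0.07, adjusted p = 4.9e-12). *Gas6*, a ligand of both *Axl* and *Mertk*, moved the other way, from 166, 189 and 178 CPM to 483, 479.5 and 519 (log2 fold change 1.49, SE 0.07, adjusted p = 1.6e-09). The antibody receptors that were called also split. *Fcgr2b*, the inhibitory Fc receptor, rose from 126, 139.6 and 137 to 1095, 1117 and 1074 CPM (log2 fold change 3.05, SE 0.07, adjusted p = 2.39e-12), while IL-4 alone lowered it to 100.1 ± 4.57 (SD, n = 3). *Fcgr3* and *Fcgr1*, activating receptors, rose by 1.17 and 0.50 on the log2 scale, and *Fcgr4*, another activating receptor, fell to 34.8 ± 2.94 CPM from 79.1 ± 6.01 (log2 fold change -1.17, SE 0.09, adjusted p = 7.74e-08). Without IL-4/IL-6 replicate 2, 16 members were lower and 6 higher.

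Integrins and adhesion molecules fell almost throughout. Of 20 tested members 18 were lower than control, where 36.7% of all genes were, and 13 were lower than IL-4 alone (20.3% over all genes). The 2 counts against control, 18 lower and 2 higher, were the same without IL-4/IL-6 replicate 2. *Itgal*, the alpha chain of LFA-1, had 169.8, 188 and 198 CPM in control and 8.56, 5.65 and 9.79 in IL-4/IL-6 (log2 fold change -4.51, SE 0.15, adjusted p = 5.62e-11). Its partner *Itgb2*, the beta chain shared by the leukocyte integrins, fell from 1232, 1271 and 1252 to 499, 471 and 505 CPM (log2 fold change -1.33, SE 0.06, adjusted p = 7.53e-10), whereas IL-4 alone had raised it to a mean of 1553. *Vcam1*, a ligand for integrins, fell from 39.6, 41.2 and 39.5 to 1.08, 0.707 and 0.633 CPM (log2 fold change -5.61, SE 0.16, adjusted p = 1.6e-11), *Itga4* from a mean of 207 ± 9.92 to 20.1 ± 6.24 and *Itga6* from 404 ± 18.5 to 49.4 ± 4.14 (SD, n = 3). The 2 members that rose were *Itgb1*, the most widely used beta chain, at 682 ± 6.96 CPM in control and 962 ± 16.9 in IL-4/IL-6, and *Itga9*, at 3.7 ± 0.568 and 18.9 ± 1.6. *Itgam*, the alpha chain of Mac-1 and a usual marker of these cells, changed by -0.18 on the log2 scale (adjusted p = 0.0292), a call that was lost without control replicate 2 or 3 or IL-4/IL-6 replicate 1 or 3 (adjusted p from 0.0925 to 0.113), with no filter on low counts (0.147) and with only the 6 libraries compared (0.0602).

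Sensors of microbial products were lower for the most part. Of 25 tested pattern recognition genes 18 were lower, 8 of them strongly, and 2 were higher, where 36.7%, 9.60% and 36.1% of all genes were, and without IL-4/IL-6 replicate 2 the counts were 20 and 3. *Tlr2*, the receptor for bacterial lipoproteins, had 134, 150.5 and 145 CPM in control, 8.93, 10.9 and 10.6 with IL-4 and 3.68, 3.77 and 4.61 with IL-4/IL-6 (log2 fold change -5.14, SE 0.11, adjusted p = 2.2e-12). *Tlr9*, the endosomal receptor for CpG DNA, fell from 40.8, 38.6 and 44 to 3, 1.47 and 2.3 CPM (log2 fold change -4.16, SE 0.18, adjusted p = 4.86e-10), and *Tlr13*, a receptor for bacterial ribosomal RNA, from 462, 450.1 and 457 to 77.7, 78.1 and 78.5 (log2 fold change -2.53, SE 0.06, adjusted p = 3e-12). The 3 lectin receptors *Clec4d*, *Clec4e* and *Clec4n*, for fungal and mycobacterial glycolipids and glycans, fell by -3.44, -3.48 and -4.35 log2 units. *Nlrp3*, the inflammasome sensor, fell from 42.8 ± 0.717 to 6.05 ± 1.4 CPM (SD, n = 3; log2 fold change -2.80, SE 0.14, adjusted p = 1.72e-09). The 2 members that rose were *Tlr4*, the receptor for lipopolysaccharide, from 125, 122 and 123 to 190.4, 169.7 and 217 CPM (log2 fold change 0.66, SE 0.09, adjusted p = 2.03e-05), and the adaptor *Myd88*, from 55.9 ± 0.776 to 96.2 ± 4.16 (SD, n = 3). *Cd14*, which hands lipopolysaccharide to TLR4, fell from 286, 296 and 293 to 44.9, 51.7 and 42.9 CPM (log2 fold change -2.63, SE 0.07, adjusted p = 1.16e-11), so the receptor and its helper moved in opposite directions.

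Inflammatory mediators were mostly low in both groups. Of 20 tested, 12 were lower and 5 higher, where 36.7% and 36.1% of all genes were. *Il12a* and *Il12b*, the subunits of IL-12, had 1.4 and 1.11 CPM in control and at most 0 and 2 counts in an IL-4/IL-6 library. *Il1a* fell from 8.69, 7.7 and 7 to 0.227, 0.177 and 1.38 CPM (log2 fold change -3.68, SE 0.47, adjusted p = 1.5e-05), and *Il1b* was not called (adjusted p = 0.261, at 1.56, 1.33 and 1.01 CPM in control and 0.227, 0.177 and 1.61 in IL-4/IL-6), although without IL-4/IL-6 replicate 3 it was lower by a log2 fold change of -2.63 (adjusted p = 0.00622), as it was with limma voom and quality weights (-2.08, adjusted p = 0.000934). *Tnf* fell from 17 ± 1.71 to 9.53 ± 1.69 CPM (SD, n = 3; log2 fold change -0.81, SE 0.16, adjusted p = 0.000563). The strongest rise in the list was *Osm*, the IL-6 family cytokine oncostatin M, from 6.66, 6.7 and 5.88 to 49.8, 56.1 and 47.3 CPM (log2 fold change 3.00, SE 0.10, adjusted p = 5.62e-11), which IL-4 alone did not raise (4.92, 4.48 and 4.8 CPM).

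Several genes for presenting antigen on MHC class II were lower. *Ciita* (chr16:10480059-10528418) encodes the master activator of class II genes, and its span overlaps *Dexi*. It had 12.7, 13.5 and 13.7 CPM in control, 2.51, 3.04 and 3.22 with IL-4 and 0.34, 0.412 and 0.461 with IL-4/IL-6 (log2 fold change -5.00, SE 0.20, adjusted p = 2.13e-10). The class II chains *H2-Aa*, *H2-Ab1* and *H2-Eb1* fell by -1.94, -1.20 and -2.10 log2 units, with *H2-Aa* at 53.2, 63 and 54.2 CPM in control and 15.9, 15.6 and 12.4 in IL-4/IL-6. *Cd74*, the invariant chain, fell by less, from 152 ± 13.5 to 120.3 ± 16.9 CPM (SD, n = 3; log2 fold change -0.33, SE 0.09, adjusted p = 0.00758). Class I genes moved little, as *B2m* and *H2-K1* were not called (adjusted p = 0.308 and 0.589) and *H2-D1* changed by -0.24 log2 units. With no filter on low counts *B2m* was called higher (log2 fold change 0.16, adjusted p = 0.0433). Of the costimulatory members, *Cd86* fell from 9.9 ± 1.11 to 2.04 ± 0.437 CPM and *Cd40* rose from 8.03 ± 1.16 to 33.9 ± 6.23 (SD, n = 3). *Cd274*, which encodes the inhibitory ligand PD-L1, rose by 0.57 log2 units, while IL-4 alone took it below control. In the list of 24 genes, 14 were lower and 4 higher (36.7% and 36.1% over all genes), and 14 were lower than IL-4 alone (20.3%). Without IL-4/IL-6 replicate 2, 15 were lower and 4 higher. The summed level of the list overlapped between the groups, at 5208 to 5797 CPM in control and 4674 to 6069 in IL-4/IL-6.

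Some genes of lipid export and breakdown fell. *Abca1* (chr4:53030787-53159895), the transporter that moves cholesterol out of the macrophage, had 186, 198 and 213 CPM in control, 23.4, 16 and 20.4 with IL-4 and 4.19, 4.54 and 6.16 with IL-4/IL-6 (log2 fold change -5.31, SE 0.16, adjusted p = 2.29e-11). *Nr1h3*, which encodes the sterol-sensing receptor LXR alpha that drives *Abca1*, fell from 50.0, 59.6 and 53.7 to 8.33, 9.07 and 7.54 CPM (log2 fold change -2.69, SE 0.10, adjusted p = 1.11e-10), and *Abcg1*, the second exporter, from 169.7 ± 4.38 to 72 ± 9.62 (SD, n = 3). *Lipa*, the acid lipase that frees cholesterol in the lysosome, fell from 1803, 1832 and 1827 to 350.3, 309 and 381 CPM (log2 fold change -2.38, SE 0.08, adjusted p = 6.09e-11). In FPKM, counts scaled by gene length and library total, which allow levels of different genes to be set side by side, *Lipa* went from a mean of 641 to 111. *Fasn*, the fatty acid synthase, was the strongest riser of the 28 lipid genes, from 129.9, 118 and 118 to 329, 202 and 365 CPM (log2 fold change 1.31, SE 0.17, adjusted p = 1.77e-05). The list as a whole had 15 lower and 6 higher members, where 36.7% and 36.1% of all genes were, and 4 fell strongly (9.60% over all genes). Without IL-4/IL-6 replicate 2 there were 15 lower and 8 higher.

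By the rule for named genes, the 10 largest losses of mean FPKM were *Psap*, *Ctsb*, *Ctsd*, *Lyz2*, *Gpnmb*, *Fth1*, *Mpeg1*, *Ctss*, *Lipa* and *Tyrobp*. *Psap*, the precursor of the saposins that aid sphingolipid breakdown, had 18046, 19252 and 18441 CPM in control and 4010, 4322 and 4018 in IL-4/IL-6 (log2 fold change -2.16, SE 0.06, adjusted p = 9.6e-12), a change in mean FPKM from 7075 to 1416. *Mpeg1* (chr19:12460779-12465283), which encodes the pore-forming perforin-2 of macrophages, had 5260, 5553 and 5483 CPM in control, 824, 759 and 763 with IL-4 and 294, 278 and 322 with IL-4/IL-6 (log2 fold change -4.17, SE 0.08, adjusted p = 1.02e-12). *Lyz2*, lysozyme, went from 13974, 15897 and 14853 to 6469, 8031 and 6046 CPM (log2 fold change -1.11, SE 0.09, adjusted p = 1.97e-07). Among the cathepsins the direction differed, since *Ctsd*, an aspartic protease, fell from 5915 ± 106 to 1813 ± 424 CPM, while *Ctsl*, a cysteine protease, rose from 1789, 1785 and 1675 to 9574, 10839 and 8525 (log2 fold change 2.48, SE 0.08, adjusted p = 4.55e-11). *Fth1*, ferritin heavy chain, has many pseudogene copies and its reads may be split, so its fall of -0.65 log2 units is uncertain. Of 27 tested lysosome genes 18 were lower, 1 of them strongly, and 6 higher (36.7%, 9.60% and 36.1% over all genes), with a median log2 fold change of -0.46, and without IL-4/IL-6 replicate 2 the counts were 19 and 7.

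The core identity of the cells was kept in part. Of 29 genes tied to macrophage identity and maturation, 18 were lower, 7 strongly, and 7 were higher, where 36.7%, 9.60% and 36.1% of all genes were. The summed level of the list ranged from 55473 to 60707 CPM in the control libraries and from 36306 to 44901 in IL-4/IL-6. Of the usual macrophage factors and markers, *Spi1*, *Cd68* and *Adgre1* rose by 0.45, 0.21 and 0.63 log2 units, with *Cd68* not called under upper-quartile scaling (0.12, adjusted p = 0.0629). In contrast, *Lyz2*, *Cd14* and *Mertk* fell, as described above. The complement genes *C1qa*, *C1qb* and *C1qc* were not called (adjusted p = 0.0749, 0.438 and 0.442). *C1qa* was called higher without control replicate 2 or IL-4/IL-6 replicate 3 (log2 fold change 0.37 and 0.38), with the replicate block (adjusted p = 0.0334) and with no filter on low counts (0.000602), and *C1qc* without IL-4/IL-6 replicate 3 (0.22). *Maf*, a transcription factor of mature macrophages, had 233, 247 and 264 CPM in control and 537, 602 and 557 in IL-4/IL-6 (log2 fold change 1.20, SE 0.07, adjusted p = 4.52e-09), while IL-4 alone lowered it to 123, 122 and 124. *Irf8*, a factor of monocyte development, fell from 263 ± 8.75 to 125 ± 2.51 CPM (SD, n = 3; log2 fold change -1.05, SE 0.06, adjusted p = 9.63e-09).

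Genes of the cell cycle split by phase. Every one of the 30 tested genes of mitosis and cytokinesis was lower in IL-4/IL-6 than in control, 22 of them strongly where 9.60% of all genes were, with a median log2 fold change of -2.77, against -0.03 over all genes. All 30 were also lower than with IL-4 alone, where 20.3% of all genes were, with a median of -1.78. *Ccnb2*, a mitotic cyclin, had 74.3, 66.5 and 68 CPM in control, 11.8, 12.2 and 10.8 with IL-4 and 1.59, 3.42 and 2.02 with IL-4/IL-6 (log2 fold change -4.88, SE 0.17, adjusted p = 7.19e-11). *Mki67*, the proliferation antigen Ki-67, had 472, 380.0 and 434 CPM in control, 139.7, 158 and 128 with IL-4 and 49.9, 36.9 and 63.1 with IL-4/IL-6 (log2 fold change -3.08, SE 0.17, adjusted p = 4.65e-09). The groups did not overlap in either gene, and IL-4 lay between control and IL-4/IL-6. *Cdc20*, an activator of the anaphase-promoting complex whose span overlaps *Elovl1*, fell from 64.9, 58.2 and 57.3 to 5.44, 5.24 and 5.64 CPM (log2 fold change -3.45, SE 0.10, adjusted p = 1.33e-11). *Cdk1*, the mitotic kinase, was among the smallest falls of the list, at 53.6, 48.7 and 49.5 CPM in control, 54, 55.9 and 57.3 with IL-4 and 22.1, 28.6 and 24.1 with IL-4/IL-6 (log2 fold change -1.01, SE 0.09, adjusted p = 4.88e-07).

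Genes of DNA replication and the G1/S transition were higher than control in the same libraries. Of 30 tested, 22 were higher, 2 were lower (36.1% and 36.7% over all genes) and 6 were not called, with a median log2 fold change of 0.96. All but *Fen1*, which had under 2 CPM, were lower than with IL-4 alone (20.3% over all genes). *Mcm2*, a subunit of the replicative helicase, had 31.5, 30.1 and 32.6 CPM in control, 175, 183 and 172 with IL-4 and 115, 104 and 122 with IL-4/IL-6 (log2 fold change 1.87, SE 0.08, adjusted p = 4.39e-10 against control, and -0.68 against IL-4, adjusted p = 1.15e-05). *Pcna*, the sliding clamp, had 299, 296 and 267 CPM in control, 990.5, 1019 and 1074 with IL-4 and 486, 598 and 448 with IL-4/IL-6 (log2 fold change 0.84, SE 0.09, adjusted p = 3.02e-06). *Rrm2*, a subunit of ribonucleotide reductase, rose with IL-4 alone (log2 fold change 1.71) and was not called with IL-4/IL-6 (adjusted p = 0.327), although limma voom with quality weights called it lower (-0.23, adjusted p = 0.0134). The 2 members below control were *E2f2*, a transcription factor, at -1.74 log2 units, and *Tk1*, thymidine kinase, at -1.25. Without IL-4/IL-6 replicate 2 there were 24 higher and 3 lower replication genes, and still 30 lower mitosis genes.

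**Figure D4:**
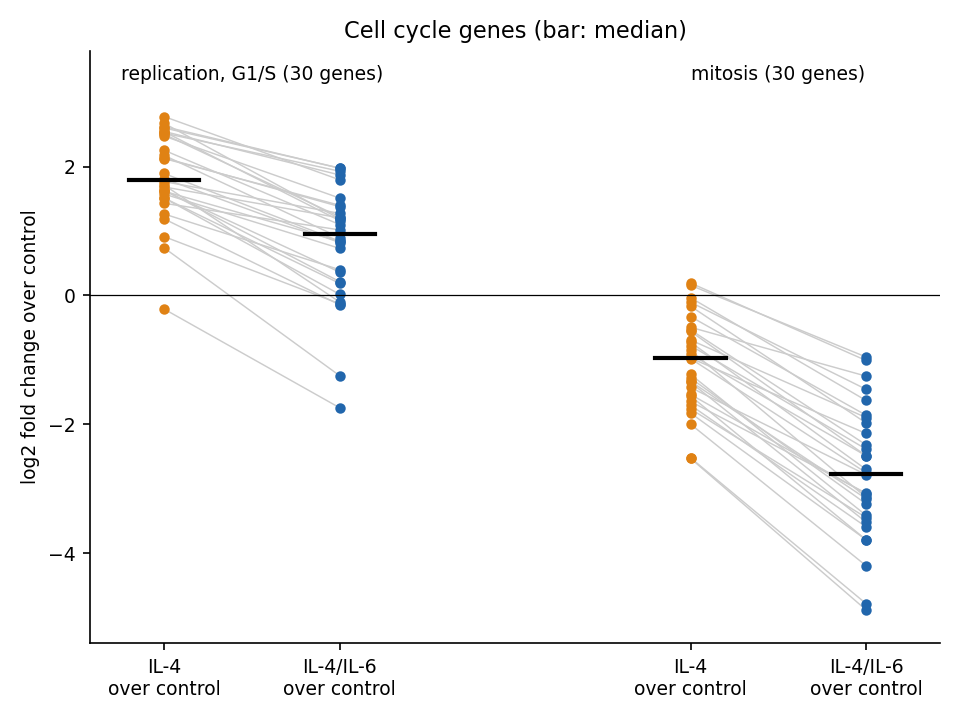
Log2 fold change over control of the 30 replication genes and the 30 mitosis genes, for IL-4 alone and for IL-4/IL-6, with 1 point per gene, a grey line joining each gene's pair of values and a bar at each median. Both contrasts use the same control libraries. All mitosis genes lie below 0 in IL-4/IL-6, at a median of -2.77, and most replication genes lie above 0, at a median of 0.96.

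Of the 21 regulators of the cycle, those on both sides of the brake changed. *Ccnd1*, cyclin D1, had 18.7, 16.8 and 16.6 CPM in control, 287, 297 and 262 with IL-4 and 171, 121 and 186 with IL-4/IL-6 (log2 fold change 3.21, SE 0.15, adjusted p = 9.73e-10). *Myc* rose from 11.8, 11.6 and 11.9 to 133, 130.3 and 121 CPM (log2 fold change 3.46, SE 0.07, adjusted p = 1.62e-12), a level that was not told apart from that with IL-4 alone (log2 fold change 0.02, adjusted p = 0.839). *Cdkn1a*, which encodes the inhibitor p21, had 33.5, 28.2 and 29 CPM in control, 215, 209 and 212 with IL-4 and 427, 354 and 322 with IL-4/IL-6 (log2 fold change 3.62, SE 0.11, adjusted p = 2.44e-11). The inhibitors *Cdkn1b* and *Cdkn1c* fell instead, by -1.64 and -5.43 log2 units, as did the antiproliferative *Btg1* and *Btg2*, by -2.16 and -3.83. In all, 7 regulators were higher and 11 lower, where 36.1% and 36.7% of all genes were.

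The promoters of the mitosis genes are shown because all of these genes moved one way. Such promoters are known to carry CCAAT boxes, bound by the factor NF-Y, and the cell cycle genes homology region (CHR), bound by the DREAM and MuvB complexes that silence them outside division. The letters TTTGAA (CHR) and CCAAT were searched on both strands in the 250 bases before the RefSeq start of each gene (build GRCm38.p6), where 25 of the 30 mitosis genes and 24 of the 30 replication genes matched a promoter. A CHR motif was found in 8 of 25 mitosis promoters (32%), 3 of 24 replication promoters (12.5%), 10.8% of those of tested genes and 16.3% of all 27025. A CCAAT box was found in 19 (76%), 15 (62.5%), 36.7% and 34.5%, in the same order, and in 323 of the 912 promoters of strongly lower genes (35.4%). The CHR and CCAAT letters do not overlap each other in the sequences below, which are written 5′ to 3′ on the strand of the gene with matches on either strand in capitals. The E2F letters GGCGGGAA, also searched, were in 0 of 25 mitosis promoters, 3 of 24 replication promoters (12.5%), 3.72% of those of tested genes and 1.88% of all. The promoters of *Cdk1* and *Cdc20* were chosen as ones that hold matches. *Cdk1* lies at chr10:69352913-69353162 on the minus strand and *Cdc20* at chr4:118437344-118437593 on the minus strand.
Cdk1: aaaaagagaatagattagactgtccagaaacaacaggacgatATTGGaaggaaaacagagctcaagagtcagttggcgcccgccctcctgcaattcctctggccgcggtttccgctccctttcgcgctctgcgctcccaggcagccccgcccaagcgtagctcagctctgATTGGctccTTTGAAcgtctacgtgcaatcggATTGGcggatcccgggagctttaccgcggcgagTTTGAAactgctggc
Cdc20: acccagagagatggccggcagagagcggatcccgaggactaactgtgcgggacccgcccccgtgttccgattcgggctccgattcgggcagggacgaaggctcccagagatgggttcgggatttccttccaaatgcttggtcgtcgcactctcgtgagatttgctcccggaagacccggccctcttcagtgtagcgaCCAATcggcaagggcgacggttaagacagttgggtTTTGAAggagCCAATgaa
A match is a run of letters and was not tested as a binding site.

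Alternative activation genes and targets of IL-6 were among the lists with more rises than falls. Of 36 tested alternative activation genes, 23 were higher, 21 of them strongly, where 36.1% and 3.66% of all genes were, with a median log2 fold change of 3.23. The list rests on textbook M2 genes, some of which the study itself examined in these libraries, so its direction is not independent evidence. *Il4ra*, the IL-4 receptor chain, had 87.3, 91.2 and 92.1 CPM in control, 37.4, 35.5 and 34 with IL-4 and 2551, 2047 and 2335 with IL-4/IL-6 (log2 fold change 4.70, SE 0.10, adjusted p = 1.6e-12), so that IL-4 alone lay lowest. *Cd163*, the haemoglobin scavenger receptor, rose from 6.19, 8.47 and 8.29 to 220.5, 170.3 and 225 CPM (log2 fold change 4.76, SE 0.15, adjusted p = 2.48e-11), and *Pdcd1lg2*, which encodes PD-L2, from 0.596 ± 0.338 to 24.7 ± 1.2 (SD, n = 3). The net state was not uniform across the list, since 10 of the 36 members were below control, where 36.7% of all genes were. *Irf4*, a factor of alternative activation, had 6.51, 5.48 and 6.44 CPM in control, 36, 37.5 and 38.1 with IL-4 and 3, 3.53 and 3.22 with IL-4/IL-6 (log2 fold change -0.90, SE 0.13, adjusted p = 3.08e-05). *Pparg*, the lipid-sensing receptor, had 46.9 ± 3.49 CPM in control, 80.1 ± 4.9 with IL-4 and 31.5 ± 2.52 with IL-4/IL-6, *Mmp12* had 662 ± 66.8, 1191 ± 43.8 and 284 ± 29.8, and *Vegfa* had 81.4 ± 8.26, 63.5 ± 5.94 and 21.8 ± 7 (SD, n = 3).

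Of 26 tested genes of the IL-6 and STAT3 response, 19 were higher and 5 lower than control (36.1% and 36.7% over all genes), and 18 were higher than IL-4 alone (17.7%). *Socs3* (chr11:117966079-117970047), the feedback inhibitor of gp130 signalling, had 6.56, 9.47 and 10.1 CPM in control, 1.28, 1.55 and 2.24 with IL-4 and 143, 121 and 122 with IL-4/IL-6 (log2 fold change 3.90, SE 0.15, adjusted p = 2.13e-10). *Stat3* itself rose from 159, 156 and 156 to 239, 193 and 241 CPM (log2 fold change 0.53, SE 0.09, adjusted p = 0.000128). *Il6st* rose from 137 ± 6.33 to 500.3 ± 108 CPM and *Cebpd*, a STAT3-driven transcription factor, from 15.2 ± 1.31 to 139.5 ± 25.5 (SD, n = 3). *Il10*, the anti-inflammatory cytokine, was low throughout, with 0.052, 0.609 and 1.06 CPM in control and 15, 17.8 and 12 in IL-4/IL-6 (log2 fold change 4.72, SE 0.37, adjusted p = 1.47e-07), and *Timp1*, an inhibitor of metalloproteinases, rose from 1.35, 0.83 and 1.34 to 62, 80.6 and 48.1 (log2 fold change 5.76, SE 0.23, adjusted p = 3.01e-10). Against that direction, *Il6ra*, the IL-6 receptor chain, fell from 131, 138 and 137 to 47.4, 36.8 and 42.4 CPM (log2 fold change -1.66, SE 0.09, adjusted p = 4.06e-09) and did not differ detectably from IL-4 alone (adjusted p = 0.751). *Lcn2*, often a STAT3 target and also a neutrophil granule protein, went from 33.8, 33.7 and 30.5 CPM to 0.113, 0.236 and 0. The counts of 19 and 5 were the same without IL-4/IL-6 replicate 2.

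The promoters of one IL-4 and one IL-6 list member are shown, chosen as ones that hold matches, for the palindrome that STAT dimers bind, TTCNNNGAA, searched on both strands in the same windows. It was found in 2 of 25 alternative activation promoters (8%), 4 of 24 IL-6 and STAT3 promoters (16.7%), 5.98% of those of tested genes and 7.18% of all. The same palindrome with 4 spacer bases was in 3 (12%), 2 (8.33%), 4.74% and 5.86%, in the same order. *Chil4*, a chitinase-like protein that shares reads with its close copy *Chil3*, was at most 2 count in a control library and 49.1, 63.8 and 52.7 CPM after co-treatment, a rise of at least 338-fold. *Fgl2*, a prothrombinase-like immune regulator, had 26.8, 29.9 and 28.1 CPM in control, 7.33, 8.08 and 8.02 with IL-4 and 189, 186 and 187 with IL-4/IL-6 (log2 fold change 2.75, SE 0.07, adjusted p = 6.27e-12). The RefSeq sequences (GRCm38.p6) lie at chr3:106219480-106219729 on the minus strand and chr5:21372423-21372672 on the plus strand, with the palindrome in capitals.
Chil4: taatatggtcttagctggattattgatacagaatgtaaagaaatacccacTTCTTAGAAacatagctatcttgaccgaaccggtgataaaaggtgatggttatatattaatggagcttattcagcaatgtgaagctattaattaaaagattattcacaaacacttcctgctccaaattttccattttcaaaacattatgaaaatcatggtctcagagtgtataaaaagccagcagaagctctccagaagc
Fgl2: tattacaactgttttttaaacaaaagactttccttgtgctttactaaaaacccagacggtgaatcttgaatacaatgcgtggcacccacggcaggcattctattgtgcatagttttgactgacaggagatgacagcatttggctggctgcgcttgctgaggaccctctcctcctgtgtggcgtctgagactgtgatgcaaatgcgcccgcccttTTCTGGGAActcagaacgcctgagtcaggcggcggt
As above, the match describes letters in this window and nothing about a factor.

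Chemokines and their receptors divided. Of 27 tested, 13 were higher, 8 strongly, and 12 were lower, 11 strongly (36.1%, 3.66%, 36.7% and 9.60% over all genes), and without IL-4/IL-6 replicate 2 the counts were 12 higher and 12 lower. The monocyte-attracting ligands *Ccl2*, *Ccl7*, *Ccl8* and *Ccl12*, neighbours in one cluster, were the strongest risers, with *Ccl7* at 1.51, 1.55 and 0.841 CPM in control and 3724, 4636 and 3047 in IL-4/IL-6. *Ccr2*, the receptor for *Ccl2*, *Ccl7* and *Ccl12* among these ligands, fell as described. Ligands and receptors of other axes also fell. *Cxcl16*, a membrane-bound chemokine and scavenger receptor, went from 81.7, 89.5 and 93.5 to 10.9, 11.8 and 8.63 CPM (log2 fold change -3.06, SE 0.10, adjusted p = 6.28e-11), *Ccrl2* from 38.3 ± 4.15 to 2.89 ± 0.917 and *Ccl22* from 5.15 ± 1 to 0.599 ± 0.329 (SD, n = 3). *Ccr7*, which guides cells to lymph nodes, had 8.43, 8.86 and 7.96 CPM in control and at most 1 count in an IL-4/IL-6 library, at least 48.6-fold lower. Receptors that rose were *Ccr1*, from 47.5 ± 3.14 to 253 ± 18.3 CPM, and *Ccr3*, from 1.12 ± 0.199 to 42.3 ± 0.158 (SD, n = 3).

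Genes for making ribosomes rose without exception, together with the Myc targets on the same list. All 20 tested genes of ribosome biogenesis and Myc targets were higher than control, 10 strongly, with a median log2 fold change of 2.01, and 14 were higher than IL-4 alone, where 36.1%, 3.66% and 17.7% of all genes were. *Srm*, spermidine synthase, rose from 11.8, 13.2 and 13.5 to 122, 139 and 119.9 CPM (log2 fold change 3.32, SE 0.08, adjusted p = 5.49e-12). *Odc1*, the rate-limiting enzyme of polyamine synthesis, had 33.9, 31.6 and 33.6 CPM in control, 123, 125 and 126 with IL-4 and 306, 328 and 265 with IL-4/IL-6 (log2 fold change 3.19, SE 0.08, adjusted p = 5.93e-12). *Ncl*, nucleolin, rose from 354 ± 1.7 to 1267 ± 50.6 CPM and *Npm1*, nucleophosmin, from 309 ± 7.23 to 869 ± 147 (SD, n = 3).

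Matrix genes moved in both directions. Of 26 tested, 11 were higher and 13 lower, not far from the 36.1% and 36.7% of all genes, and the strong changes numbered 7 up and 8 down, where 3.66% and 9.60% of all genes changed so. *Fn1*, fibronectin, had 44.5, 51.4 and 55.5 CPM in control, 522, 541 and 441 with IL-4 and 2235, 1445 and 2558 with IL-4/IL-6 (log2 fold change 5.38, SE 0.21, adjusted p = 1.77e-10). *Tgfbi*, a matrix protein induced by TGF-beta, rose from 232, 232 and 262 to 3123, 2850 and 2634 CPM (log2 fold change 3.58, SE 0.08, adjusted p = 2.76e-12), and *Spp1*, osteopontin, from 2973 ± 156 to 5597 ± 1037 with IL-4 alone below control at 2098 ± 141 (SD, n = 3). On the other side, *Timp3* was at least 110.1-fold lower from 21.1, 19.7 and 16.4 CPM, and *Sparc*, *Col1a1* and *Col1a2*, which mark stromal cells, went from 2.69, 9.04 and 7.11 CPM in control to 0 in all IL-4/IL-6 libraries.

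By the same rule, the 10 largest gains of mean FPKM included *Ctsl*, *Ccl7*, *Ccl2*, *Mrc1*, *Lgals3*, *Ccl8*, *Spp1*, *Lgals1* and *Rplp1*. Strong rises at high level, picked after their values were seen, included *Dab2*, a clathrin adaptor, at 235, 212 and 228 CPM in control, 1129, 1142 and 1082 with IL-4 and 4804, 4039 and 4905 with IL-4/IL-6 (log2 fold change 4.37, SE 0.09, adjusted p = 1.92e-12), and *Ap2m1*, a subunit of the clathrin adaptor AP-2, at 323, 332 and 318, 1240, 1208 and 1246 and 2258, 2486 and 2174 (log2 fold change 2.84, SE 0.06, adjusted p = 2.41e-12). *Snx2*, a sorting nexin, rose from 156 ± 6.79 to 1939 ± 138 CPM and *Tfrc*, the transferrin receptor, from 168 ± 4.84 to 892 ± 59.2 (SD, n = 3). In *Dab2* and *Ap2m1* the 3 groups kept the order control, IL-4, IL-4/IL-6 in every library. Of the 501 strong rises, 22 were genes that IL-4 alone lowered, as it did 33.7% of all tested genes, among them *Il4ra*, *Fcgr2b*, *Socs3*, *Fgl2* and, named after their values were seen, *Ednrb*, the endothelin B receptor, at 15.9 ± 1.03 CPM in control, 6.36 ± 0.956 with IL-4 and 497 ± 33.8 with IL-4/IL-6, and *Fcgrt*, the neonatal Fc receptor, at 60.9 ± 5.95, 19.2 ± 2.77 and 317 ± 61.3 (SD, n = 3).

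**Figure D5:**
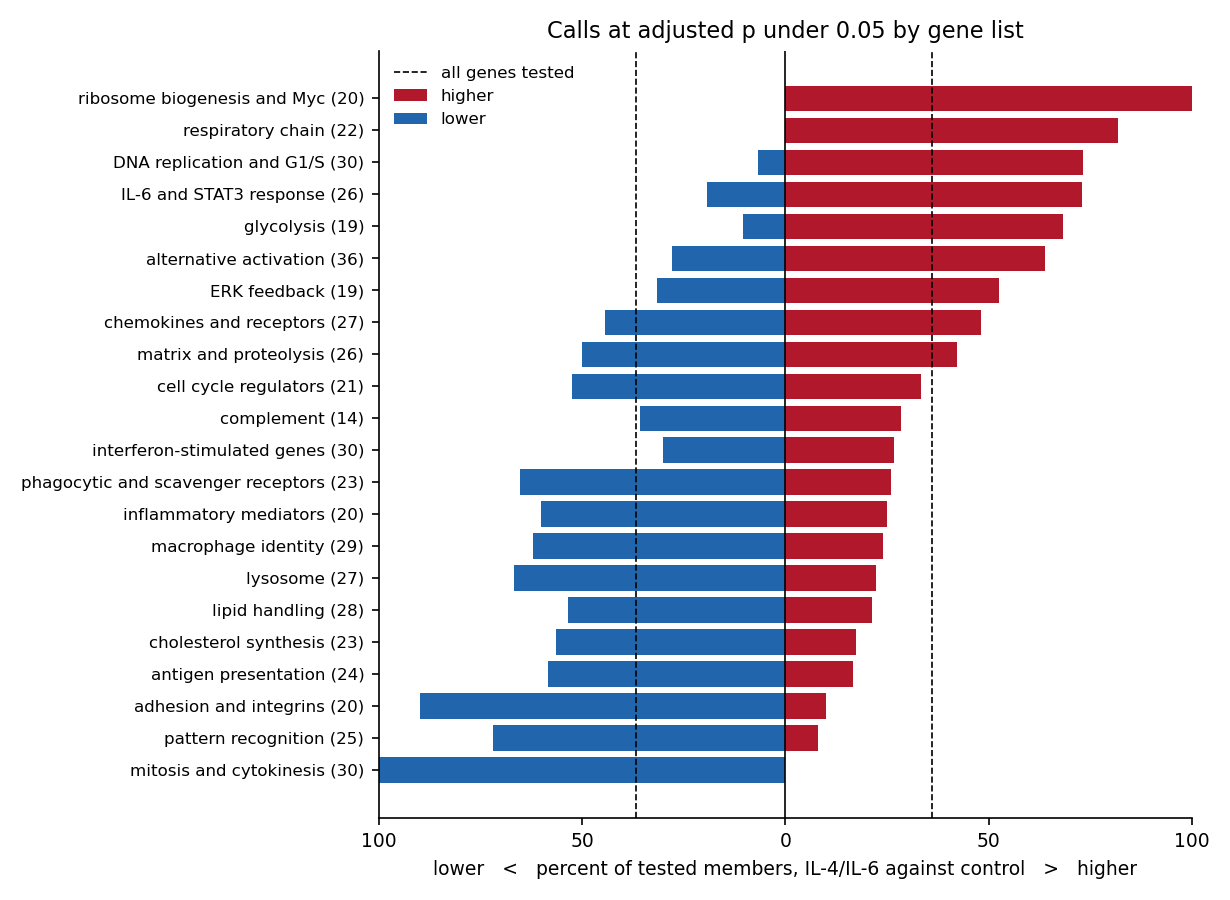
Share of the tested members of each gene list that were higher (red, to the right) or lower (blue, to the left) in IL-4/IL-6 than in control, with the number of tested members beside each name and dashed lines at the shares over all genes tested, 36.1% and 36.7%. Ribosome biogenesis and Myc (20 of 20 higher) and mitosis (30 of 30 lower) lie at the ends. Without IL-4/IL-6 replicate 2, no list changed by more than 2 members in either direction.

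The other co-treated state, IL-13/IL-6, was compared directly in a fit of all 15 libraries. Of the 1314 strongly lower genes, 417 (31.7%) differed from IL-13/IL-6, close to the 31.3% of all genes that did, and 402 of these were lower with IL-4/IL-6, where 15.5% of all genes were. Of the 501 strongly higher genes, 358 (71.5%) differed. Both sets were chosen on the IL-4/IL-6 libraries that enter this contrast too, so nothing is read from these counts. The cytokine doses of the 2 states were not equal, at 10 ng/ml of IL-4 and 40 ng/ml of IL-13. *Sema4d* had 81.3, 72.5 and 81.2 CPM with IL-13/IL-6, above each IL-4/IL-6 library (log2 fold change -2.58, SE 0.09, adjusted p = 2.78e-12 for IL-4/IL-6 over IL-13/IL-6). *Cx3cr1* had 6.82, 4.88 and 5.78 CPM with IL-13/IL-6, also above all IL-4/IL-6 libraries (log2 fold change -3.23). For *Itgax*, with 54.1, 58.7 and 61.7 CPM, no difference was called (log2 fold change -0.16, adjusted p = 0.183). *Cd300a*, an inhibitory receptor, had 28.4, 29.6 and 28 CPM in IL-13/IL-6 and 23.4, 26.7 and 25.3 in IL-4/IL-6, a small difference that was called (log2 fold change -0.19, adjusted p = 0.0479). The control means of these genes lay far above both co-treated groups.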

How the data were processed

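RNA of BMDMs from 15 libraries, 3 per group, was sequenced. The authors deposited raw counts for 53465 genes and FPKM values for 26080 of them. The submitters' processing notes name CASAVA, Bowtie2 2.2.3, HISAT2 2.1.0, TopHat2, DESeq2 and the build GRCm38 without saying what each was used for, and the counting tool and its use of strand are not given in the sources used here. Reads of overlapping or near-identical genes may therefore be misassigned. Gene positions were taken from GENCODE vM21 and promoters from RefSeq (GRCm38.p6). The deposited FPKM of a gene equalled its count divided by one length and the library total, so depth is that of the counts.

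Counts were tested with edgeR 4.0.16 (R 4.3.3), with TMM scaling, filterByExpr (minimum count 10), glmQLFit and glmQLFTest on 9 libraries (control, IL-4 alone, IL-4/IL-6), and on all 15 for IL-13/IL-6 (13938 genes), with Benjamini-Hochberg adjustment over all genes tested. Calls used an adjusted p under 0.05 and, for strong changes, a log2 fold change beyond 2, the study's threshold for induction. CPM values were TMM-scaled, and each SE was the absolute log2 fold change divided by the square root of the quasi-likelihood F statistic. Where all libraries of a group had at most 3 counts, a limit of 3 counts gave a bound on the fold (0.163 CPM in control, 0.173 in IL-4/IL-6), which covers counting error only.

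Named genes were the members of 22 pathway lists and 10 marker lists, the 15 largest rises and 15 largest falls with non-overlapping replicates and 10 or more CPM, the 10 largest gains and losses of mean FPKM, and the 5 highest genes lost to or gained from the limit of detection. The comparison and all lists were chosen with earlier results of these data known. Some members are not reported here. The labels do not say whether the replicate numbers pair the samples, and the main fit treated them as unpaired. The tests were tried on simulated counts. Alternatives were DESeq2 1.42.0, upper-quartile scaling, other filters, other sets of libraries, limma 3.58.1 (voom with quality weights), glmTreat, a replicate block, and leaving out each replicate.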

Additional observations from a re-analysis of the deposited data

How the results depend on the processing

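In the 14 alternatives run for single genes, no called gene among those named changed direction, while *B2m*, *C1qb*, *C1qc* and *H2-K1*, not called, changed sign without IL-4/IL-6 replicate 2, and *H2-K1* also with upper-quartile scaling and with limma voom. The 1314 strongly lower genes numbered 2003 with no filter on low counts, which tests more genes, and 871 with glmTreat, which requires the fold itself to exceed the threshold, by which the 501 strongly higher genes numbered 318. The 24 strongly lower genes above their IL-4 level numbered 56 with limma voom and quality weights, where the cause was not tested, and 11 with glmTreat. Leaving out each control or IL-4/IL-6 replicate gave 4621 to 5037 higher, 4685 to 5212 lower, 503 to 539 strongly higher and 1342 to 1526 strongly lower genes, with 518 to 616 below IL-4, 18 to 32 above IL-4 and 367 to 473 different from IL-13/IL-6. In each of the 14 alternatives other than glmTreat, 938 of the strongly lower and 379 of the strongly higher genes were called so. The replicate numbers gave correlations of 0.0129, 0.0886 and 0.0782 between same-numbered samples. Each of the 3 control libraries correlated best with the IL-4/IL-6 library of its own number. With the replicate block there were 4853 higher, 4958 lower, 501 strongly higher and 1317 strongly lower genes (1307 shared), with 544 below IL-4, 19 above IL-4 and 392 different from IL-13/IL-6. *Cd68* was not called with upper-quartile scaling (adjusted p = 0.0629), which shifted all fold changes by -0.09 on the log2 scale, and *Rrm2* was called lower with limma voom (log2 fold change -0.23). The depth of the libraries sets a limit of about 0.17 CPM, and 374 of the 1314 strongly lower genes lay at it in IL-4/IL-6. Their fitted folds depend on the prior count, and 352 of them passed the threshold when taken at that limit.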

Other observations

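Interferon-stimulated genes, the antiviral set that interferons induce, moved in both directions. Of 30 tested, 8 were higher than control (where 36.1% of all genes were), 9 were lower (36.7%) and 13 were not called, while 15 were lower than IL-4 alone (20.3%). *Usp18*, which restrains interferon receptor signalling, had 2.81, 4.71 and 4.15 CPM in control and 22.7, 32.2 and 28.4 in IL-4/IL-6 (log2 fold change 2.85, SE 0.18, adjusted p = 1.93e-08), and *Bst2*, tetherin, had 79.9, 83.3 and 79.7 and 326, 449 and 275 (log2 fold change 2.12, SE 0.13, adjusted p = 1.82e-08). *Ifit3*, an RNA-binding antiviral protein, had 4.63, 5.98 and 4.88 CPM in control and 1.25, 1.83 and 2.25 in IL-4/IL-6 (log2 fold change -1.52, SE 0.22, adjusted p = 3.56e-05). *Irf7*, the factor that amplifies interferon production, was not called (adjusted p = 0.422), at 16.8 ± 0.837 CPM in control and 17.8 ± 1.01 in IL-4/IL-6 (SD, n = 3). *Vsig4*, the complement receptor of resident macrophages, stood out in the complement list with 2.13, 2.71 and 2.63 CPM in control and at most 1 count in an IL-4/IL-6 library. Of the 14 tested complement genes 4 were higher and 5 lower, close to the 36.1% and 36.7% of all genes.

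Metabolic lists divided by pathway. Of 22 tested respiratory chain genes 18 were higher and none was lower (36.1% and 36.7% over all genes), or 18 and 2 without IL-4/IL-6 replicate 2, with *Cycs*, cytochrome c, at 46.6, 45.3 and 41.3 CPM in control and 145, 172 and 128 in IL-4/IL-6 (log2 fold change 1.75, SE 0.10, adjusted p = 4.89e-09). Of 19 tested glycolysis genes 13 were higher and 2 lower (36.1% and 36.7% over all genes), with *Ldha*, lactate dehydrogenase, at 623, 663 and 625 and 1526, 2127 and 1584 CPM (log2 fold change 1.47, SE 0.10, adjusted p = 4.23e-08). Cholesterol synthesis genes changed little in size, with a range from -1.25 to 0.85 log2 units, and 13 of 23 were lower and 4 higher (36.7% and 36.1% over all genes), with 12 above their level in IL-4 alone (17.7% over all genes). Genes of the ERK feedback response, which the kinase ERK induces in its own restraint, were higher in 10 of 19 and lower in 6, where 36.1% and 36.7% of all genes were. *Dusp6*, the phosphatase that inactivates ERK, had 25.6, 26.7 and 24.2 CPM in control, 56.9, 57.4 and 62.3 with IL-4 and 143, 153 and 143 with IL-4/IL-6 (log2 fold change 2.53, SE 0.07, adjusted p = 1.33e-11), whereas *Egr1*, an early response gene, had 3.44, 3.99 and 4.59, 9.89, 10.3 and 11.8 and 1.93, 2 and 1.78 (log2 fold change -1.05, SE 0.18, adjusted p = 0.000165). Of 7 tested markers of osteoclasts and fused cells, 2 were higher and 4 lower (36.1% and 36.7% over all genes). *Dcstamp* and *Ocstamp*, which drive the fusion of macrophages into giant cells, were both raised by IL-4 alone, to 6.79 ± 2.09 and 18.9 ± 2.05 CPM, and stood at 0.173 ± 0.1 and 1.04 ± 0.283 with IL-4/IL-6 against 1.53 ± 0.342 and 0.272 ± 0.145 in control (SD, n = 3).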
